A study of Homo sapiens with 44 samples.

Results

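Ribosome biogenesis is the making of ribosomes in the nucleolus, and the genes described here code for the proteins that do it. The set was chosen by gene symbol from factors of the nucleolus that are known as targets of Myc transcription factors. The rule uses no measured value. Of 48 genes listed, 39 had a named transcript cluster, 1 each, on the Affymetrix Clariom S arrays, out of 21448 transcript clusters tested. The genes NOP56, DKC1, BOP1, WDR43, DDX18, GNL3, TAF1D, PPAN and EBNA1BP2 were not analysed here. A transcript cluster is the group of probes that reads 1 gene, and its value is a log2 intensity, so that a difference of 1 is a 2-fold difference. The roles were RNA polymerase I and ribosomal DNA transcription (6 of 7 measured), box C/D small nucleolar ribonucleoproteins and their assembly (3 of 4), box H/ACA ribonucleoproteins (3 of 4), the small subunit processome and 40S maturation (13 of 14), 60S assembly (11 of 16) and nucleolar chaperones and organisers (3 of 3).

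Ribosomal RNA is transcribed in the nucleolus by RNA polymerase I as a long precursor. Small nucleolar ribonucleoproteins guide methylation (box C/D) and pseudouridylation (box H/ACA) of this precursor, and large assemblies of processing factors cut and fold it into the small (40S) and large (60S) subunits. Myc proteins bind E-boxes, short DNA motifs near transcription starts, and ribosome biogenesis genes are among their best known targets, in neuroblastoma as in other tumours.

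The arrays came from 2 neuroblastoma cell lines, CHP134 with MYCN amplification and SK-N-AS without it. Both were made stable for a doxycycline (DOX)-inducible shRNA. CHP134 cells carried JMJD6 shRNA-1 or JMJD6 shRNA-2, 2 hairpins against the gene of the arginine demethylase JMJD6, or a scrambled (SCR) control shRNA. SK-N-AS cells carried JMJD6 shRNA-2 or the control shRNA. All were given 2 µg/ml DOX or vehicle control for 40 hours. In CHP134 there were 4 DOX and 4 vehicle arrays of shRNA-1 (repeats A, B, E and F), 4 and 4 of shRNA-2 (repeats A, B, C and D) and 6 and 6 distinct arrays of the control shRNA (repeats A to F). In SK-N-AS there were 3 and 3 of shRNA-2 and 3 and 3 of the control shRNA, of which repeats B and C carry a letter and the other does not. Control cells carried an inducible hairpin as well, and their DOX arrays shared DOX with those of the JMJD6 shRNA cells. The lines were made by lentiviral infection and sorting of cells with high GFP, which the construct carries, and the methods describe no picking of clones. The response to a hairpin was its DOX minus vehicle difference less that of control shRNA cells, with control repeats of the same letters, so that both hairpins share control repeats A and B. The mean response was the average DOX minus vehicle difference of both CHP134 hairpins less that of all 6 control repeats.

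The knockdown was seen on the arrays. JMJD6 averaged 7.01 ± 0.17 with DOX and 7.75 ± 0.13 with vehicle in shRNA-1 CHP134 cells (SD, n = 4 each), and 6.69 ± 0.19 with DOX and 7.77 ± 0.11 with vehicle in shRNA-2 CHP134 cells (n = 4 each). In SK-N-AS shRNA-2 cells it averaged 6.64 ± 0.20 with DOX and 7.29 ± 0.14 with vehicle (n = 3 each). MYCN averaged 12.56 ± 0.08 with DOX and 12.27 ± 0.09 with vehicle in shRNA-1 CHP134 cells, 12.67 ± 0.08 with DOX and 12.23 ± 0.16 with vehicle in shRNA-2 CHP134 cells, and 12.24 ± 0.12 with DOX and 12.20 ± 0.13 with vehicle in control CHP134 cells. Its mean response was 0.33 (SE 0.12, adjusted p = 0.205, or 0.0178 once arrays were paired by letter, limma), and its part in the results below was not tested. The study reported the other direction after a longer DOX treatment. There, N-Myc mRNA by RT-PCR and N-Myc protein were lower in CHP134 cells after JMJD6 knockdown. The reason for the difference was not tested. MYC lay between 8.31 and 8.87 on all SK-N-AS arrays, while MYCN was 3.90 to 4.52 in SK-N-AS and MYC 3.48 to 5.68 in CHP134. All 39 ribosome biogenesis genes lay above background on every array, taken as the 95th percentile of its negative controls, by at least 1.30 in CHP134 and 2.12 in SK-N-AS. The adrenergic neuroblastoma markers PHOX2A, HAND2, GATA3, ISL1 and TH exceeded the same level on all 40 arrays, and DBH did on 39. So did the mesenchymal neuroblastoma markers VIM, FN1, CD44, PRRX1 and SNAI2 on all 40, and YAP1 on 11 of 28 CHP134 and 12 of 12 SK-N-AS arrays. Exceeding this level therefore does not tell these types apart. VIM, CD44, YAP1 and PRRX1 lay wholly higher in SK-N-AS and GATA3 wholly higher in CHP134, while the ranges of the other markers overlapped between the lines.

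Some arrays stood apart. In CHP134 the repeats formed sets (A and B, C and D, E and F). Deviations of arrays from their group means correlated at 0.14 to 0.59 between groups within a letter (median 0.39, 54 of 54 pairs over 0.1). Between the other letters of a set they correlated at -0.06 to 0.55 (median 0.29, 49 of 54 over 0.1). The median was -0.22 between letters of different sets. In the CHP134 control vehicle array of repeat C, 5 of the 39 genes were lower and 21 higher than in the other 5 arrays of its group, against 23.2% and 22.4% of all clusters. Leaving this array out turned the sign of the mean response in CHP134 for 3 of 39 genes (NHP2, GRWD1 and POLR1B) and moved it by over 1.5 times for 10 others, none of them called. In SK-N-AS, the control vehicle array without a letter and the control DOX array of repeat B correlated with each other at 0.45, but at -0.39 to -0.31 with the other 4 control arrays, which correlated with one another at 0.36 to 0.43.

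E-boxes were frequent at the transcription starts of these genes. RefSeq promoter windows (GRCh38.p14) from 250 bases before to 50 bases after each start were found for 40 of the 48 genes. The genes with no window there were BOP1, DDX18, NOLC1, NOP58, POLR1E, RRP12, RRP1B and RRS1. The canonical E-box CACGTG, which reads the same on both strands, was in a window of 19 of the 40 genes (47.5%), against 8.77% of 27305 genes over all windows. The non-canonical E-box, CACGCG on either strand, was in 14 of the 40 (35%), against 13.5% of all genes. The windows of the 40 genes had a median GC content of 63.7%, against 58.7% over all windows. Other ribosome biogenesis genes on a second, longer list had a canonical E-box in 27 of 91 (29.7%). Of the 22 canonical matches, 18 began within 50 bases of the start (81.8%), against 36.9% of 2821 matches over all windows. The genes were chosen as known targets of Myc proteins, which bind E-boxes, so the choice itself favours a high share. These are matches of letters, and binding was not measured on these arrays.

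The stretches below show how close the motif (in capitals) lies to the start in genes described in the results, each 30 bases long and read 5′ to 3′ on the gene's strand.
LYAR: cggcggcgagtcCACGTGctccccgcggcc
NAT10: aatgcgcttgcgCACGTGctgtctaccagt
NOP2: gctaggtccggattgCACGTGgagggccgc
GAR1: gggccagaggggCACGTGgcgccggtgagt
FBL: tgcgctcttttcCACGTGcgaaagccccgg
MRTO4: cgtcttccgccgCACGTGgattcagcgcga
RRP9: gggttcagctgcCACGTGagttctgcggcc
MYBBP1A: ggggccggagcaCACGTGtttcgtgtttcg
BYSL: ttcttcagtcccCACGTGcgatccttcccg
PES1: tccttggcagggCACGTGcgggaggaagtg
UTP20: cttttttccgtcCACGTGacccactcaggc
The first base of the motif was at -64 in LYAR (chr4:4290068-4290097, minus strand), -15 in NAT10 (chr11:34105602-34105631, plus), 36 in NOP2 (chr12:6568242-6568271, minus) and 32 in GAR1 (chr4:109815781-109815810, plus), where 1 is the first transcribed base. It was at 7 in FBL (chr19:39846356-39846385, minus), 15 in MRTO4 (chr1:19251807-19251836, plus), -5 in RRP9 (chr3:51941892-51941921, minus) and 28 in MYBBP1A (chr17:4555340-4555369, minus). It was at 29 in BYSL (chr6:41921515-41921544, plus), 14 in PES1 (chr22:30591880-30591909, minus) and -10 in UTP20 (chr12:101280083-101280112, plus). LYAR has another RefSeq start farther upstream, whose window held no canonical E-box, and its position here counts from the downstream start.

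NOP10, a subunit of the box H/ACA complex, had 2 canonical E-boxes, at -170 and -11. Both are in capitals in the 200 bases before its start (chr15:34343137-34343336, minus strand).
NOP10: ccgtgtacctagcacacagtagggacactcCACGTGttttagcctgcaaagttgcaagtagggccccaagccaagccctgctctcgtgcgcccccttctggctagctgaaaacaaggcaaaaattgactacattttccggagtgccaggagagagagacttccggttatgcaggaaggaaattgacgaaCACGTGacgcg
Among measured genes with a window, the 16 with a canonical E-box had a median mean response in CHP134 of -0.12 and the 17 without one had -0.15. RRP1B (-0.79) and NOLC1 (-0.67), which fell most, had no window and are in neither group. The lowest responses in these groups were -0.51 and -0.43.

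**Figure D1:**
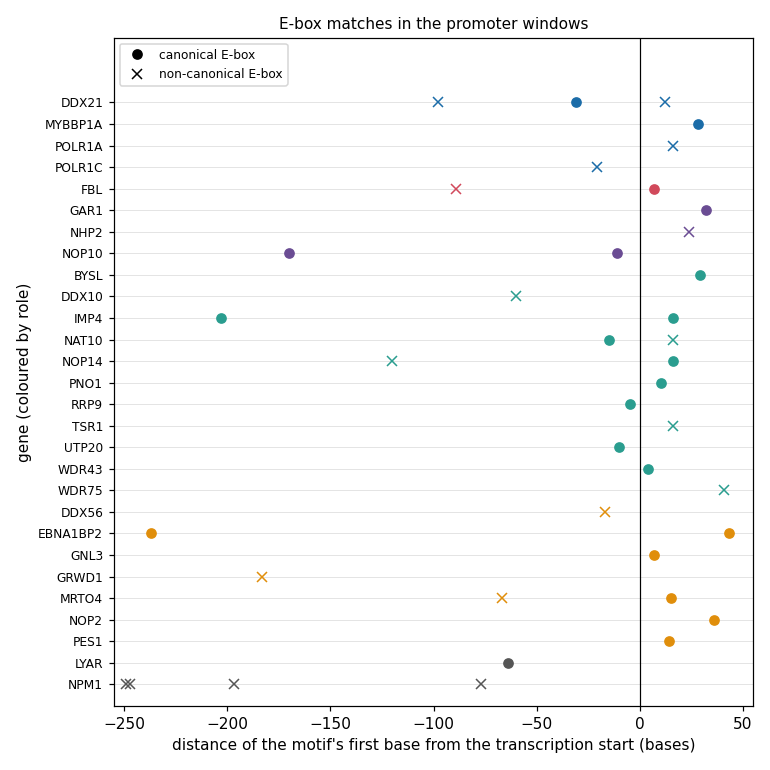
Positions of canonical (circles) and non-canonical (crosses) E-boxes in the promoter windows of the 28 genes that have either, coloured by role. The x axis is the distance of the motif's first base from the transcription start in bases, and 18 of the 22 canonical matches lie within 50 bases of it.

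Few ribosome biogenesis genes fell after JMJD6 knockdown in CHP134 cells, and the median of the set lay below 0. In the mean response of both hairpins 1 of 39 genes passed an adjusted p of 0.05 (limma), and it was lower. That was RRP1B. Over all clusters 1.25% passed, 0.844% lower and 0.406% higher. With the repeat letter as a block, which pairs arrays of 1 letter, 3 of 39 passed (RRP1B, NOLC1 and LYAR), all lower, against 6.18% of all clusters, 3.59% lower. Under the study's list thresholds (a fold of 1.5, p of 0.05 and adjusted p of 0.20), 2 of 39 passed, against 2.46% of all clusters. At an unadjusted p of 0.05, 7 of 39 were lower and 0 higher, against 5.62% and 4.64% of all clusters. The median change over the 39 genes was -0.12, with 29 below 0, and over all clusters it was 0.00, with 49.6% below 0. The 39 genes all lay above background, while 72.3% to 80.5% of all clusters did so on a CHP134 array. Shares among only the clusters above background are not given here for the responses. The signal gap between positive and negative control probe sets also differed, by -0.06 (shRNA-1) and -0.15 (shRNA-2) between DOX and vehicle arrays and by 0.01 in control cells, and its part in the result was not tested.

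**Figure D2:**
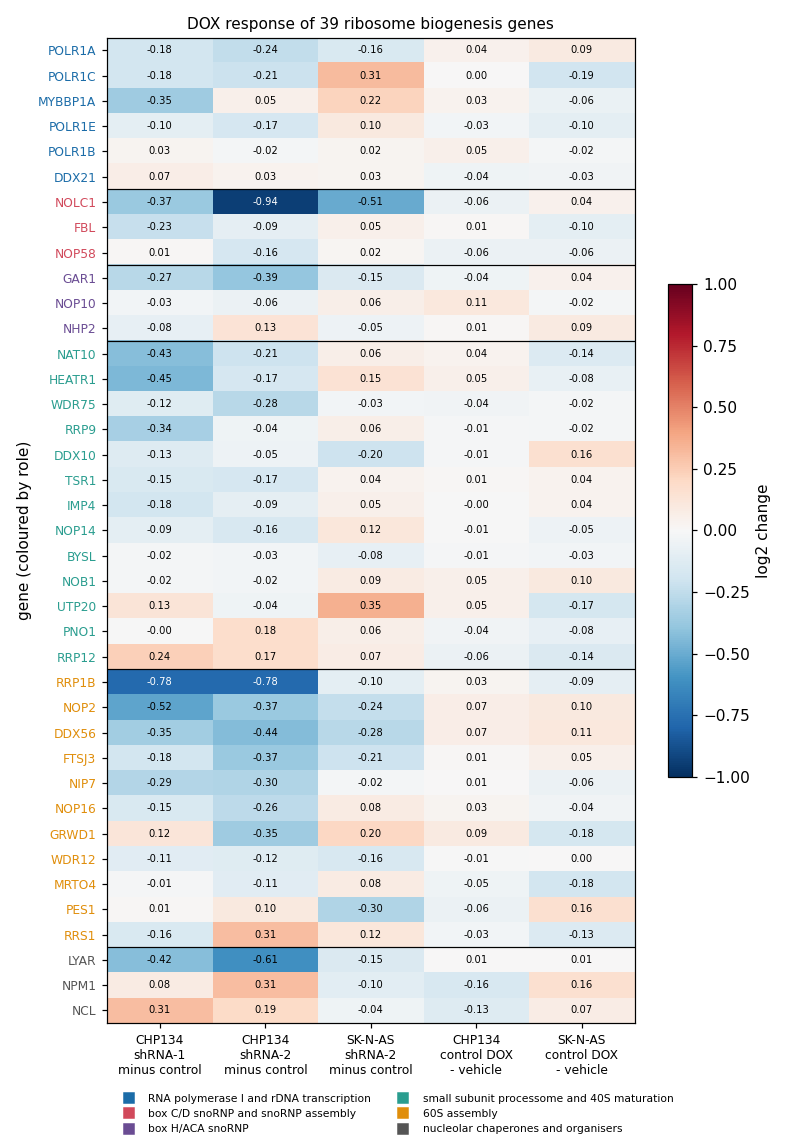
Log2 change of the 39 genes in 5 comparisons, by role and, within a role, by the mean response in CHP134. The first 3 columns are responses less the control shRNA response, and both CHP134 columns share control repeats A and B. The last columns are DOX minus vehicle in control cells. The darkest blue cells are RRP1B with both hairpins and NOLC1 and LYAR with shRNA-2 in CHP134, and the control columns are pale.

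RRP1B, a nucleolar protein of ribosomal RNA processing related to yeast Rrp1, had the smallest p. It measured 8.48, 8.57, 8.35 and 8.39 with DOX and 9.51, 9.64, 8.86 and 8.85 with vehicle in shRNA-1 cells (repeats A, B, E and F). In shRNA-2 cells it measured 8.16, 8.61, 8.80 and 8.81 with DOX and 9.44, 9.33, 9.35 and 9.30 with vehicle (repeats A, B, C and D). Control cells ranged from 9.07 to 9.54 with DOX (median 9.22) and from 9.002 to 9.55 with vehicle (median 9.17). All 8 arrays with an induced JMJD6 hairpin lay below all 20 other CHP134 arrays. RRP1B was the 1 of 39 genes of which this held, against 0.48% of all clusters, and 0 lay above, against 0.345%. RRP1B fell by 0.79 in the mean response (SE 0.18, 1.73-fold, adjusted p = 0.0199, limma). Its changes were -0.78 (SE 0.26, adjusted p = 0.638) for shRNA-1 and -0.78 (SE 0.21, adjusted p = 0.0915) for shRNA-2. With the repeat letter as a block these had adjusted p = 0.0919 and 0.0443. The shRNA-1 vehicle arrays of repeats E and F were already lower than those of A and B. Within repeats A and B alone the mean response of RRP1B was -1.01 with an adjusted p of 0.156.

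NOLC1 (Nopp140), a chaperone of small nucleolar ribonucleoproteins, had the largest change with shRNA-2. It measured 9.24, 9.99, 9.79 and 10.09 with DOX and 10.75, 10.93, 10.66 and 10.89 with vehicle in shRNA-2 cells. In shRNA-1 cells it measured 9.99, 10.22, 9.62 and 9.47 with DOX and 10.78, 10.67, 9.76 and 9.81 with vehicle. Control cells ranged from 10.50 to 11.02 with DOX (median 10.75) and from 10.62 to 11.10 with vehicle (median 10.79). The shRNA-2 groups did not overlap, while the shRNA-1 vehicle arrays of repeats E and F lay among the shRNA-1 DOX arrays. The response was -0.94 for shRNA-2 (SE 0.24, adjusted p = 0.0692, limma), and -0.37 for shRNA-1. With the letter as a block, NOLC1 fell with shRNA-2 (adjusted p = 0.0133) and in the mean response of -0.67 (SE 0.17, adjusted p = 0.0160, against 0.164 without the block).

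LYAR, a nucleolar zinc finger protein of ribosomal RNA processing, differed between the repeat sets and did not pass without a block. It measured 7.75, 7.75, 7.47 and 7.49 with DOX and 7.87, 8.20, 7.78 and 7.79 with vehicle in shRNA-1 cells. In shRNA-2 cells it measured 7.42, 7.45, 7.92 and 8.02 with DOX and 8.24, 8.29, 8.53 and 8.62 with vehicle. Control cells ranged from 8.17 to 8.57 with DOX (median 8.27) and from 7.998 to 8.93 with vehicle (median 8.23). DOX and vehicle arrays did not overlap for either JMJD6 hairpin, and they did in control cells. The mean response was -0.51 (SE 0.19, adjusted p = 0.258, limma), and with the block its SE was 0.11 and LYAR fell (adjusted p = 0.00524). Among control arrays LYAR averaged 8.24 in repeats A and B, 8.68 in C and D and 8.12 in E and F, a span of 0.56 beside an SD of 0.09 within set and treatment.

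**Figure D3:**
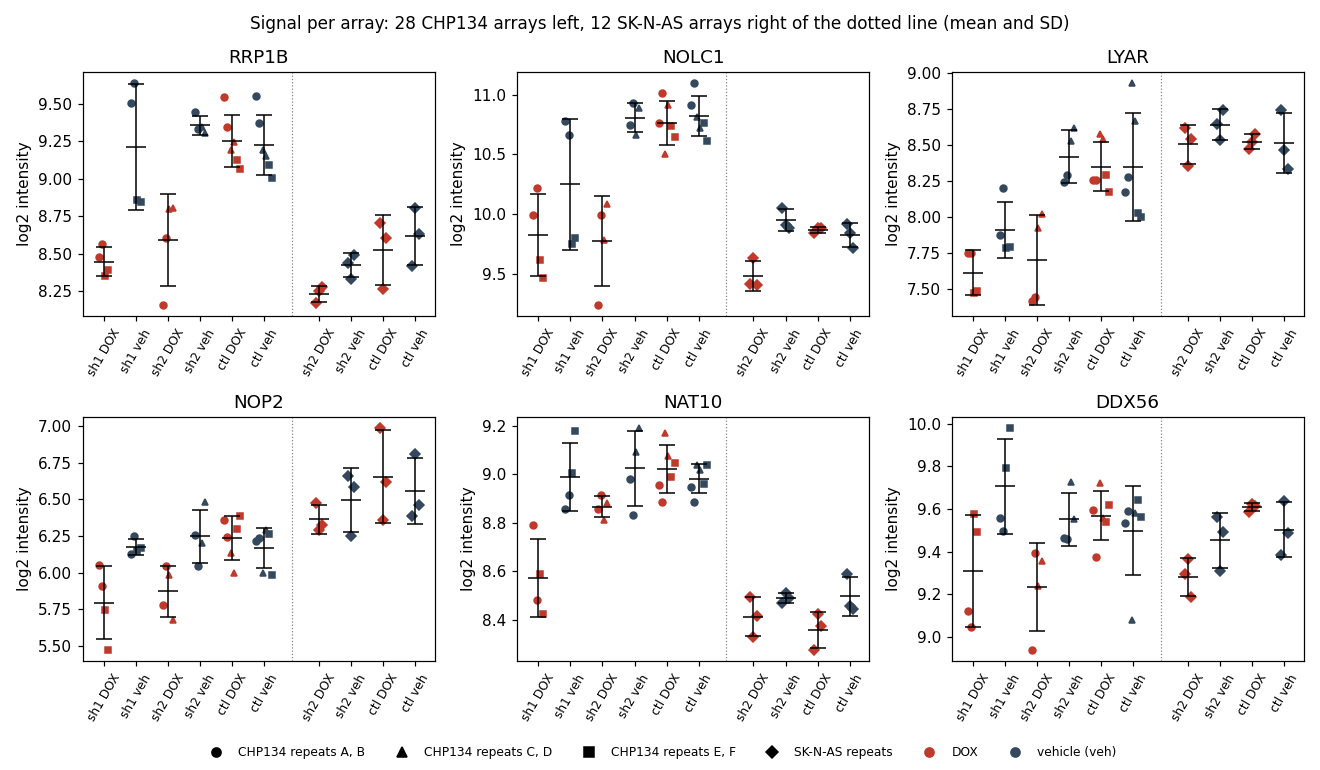
Log2 intensity of 6 genes on each array, with DOX arrays in red and vehicle (veh) arrays in dark blue, the mean and SD of each group in black and repeat sets by symbol (sh1, sh2: JMJD6 shRNA-1 and shRNA-2; ctl: control shRNA). RRP1B lies between 8.16 and 8.81 on the 8 induced JMJD6 shRNA arrays of CHP134, below all other CHP134 arrays, and NOLC1 between 9.41 and 9.63 on the 3 induced arrays of SK-N-AS, below all others of that line.

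Paired within repeats, DOX minus vehicle had the same sign in all 8 repeats of JMJD6 shRNA CHP134 cells for 8 of the 39 genes, and all 8 were lower (against 6.28% of all clusters lower and 6.55% higher). They were RRP1B, NOLC1, LYAR, NOP2, DDX56, NIP7, GAR1 and POLR1C. In control cells 0 of 39 were lower and 0 higher in all 6 repeats, against 1.12% and 1.36% of all clusters. The median of the 39 genes was below 0 in each of the 8 JMJD6 shRNA repeats, from -0.25 to -0.01, and in 1 of 6 control repeats, with a range of -0.09 to 0.03. It was near 0 in repeats A and E of shRNA-1 (-0.02 and -0.01) and lower in B and F (-0.25 and -0.23). With shRNA-2 it was -0.17 in A, -0.08 in B, -0.11 in C and -0.12 in D. Every DOX array lay below every vehicle array for 4 of 39 genes with shRNA-1 (against 2.81% of all clusters) and for 7 with shRNA-2 (against 5.79%), and above for 0 with either (against 2.65% and 5.69%).

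**Figure D4:**
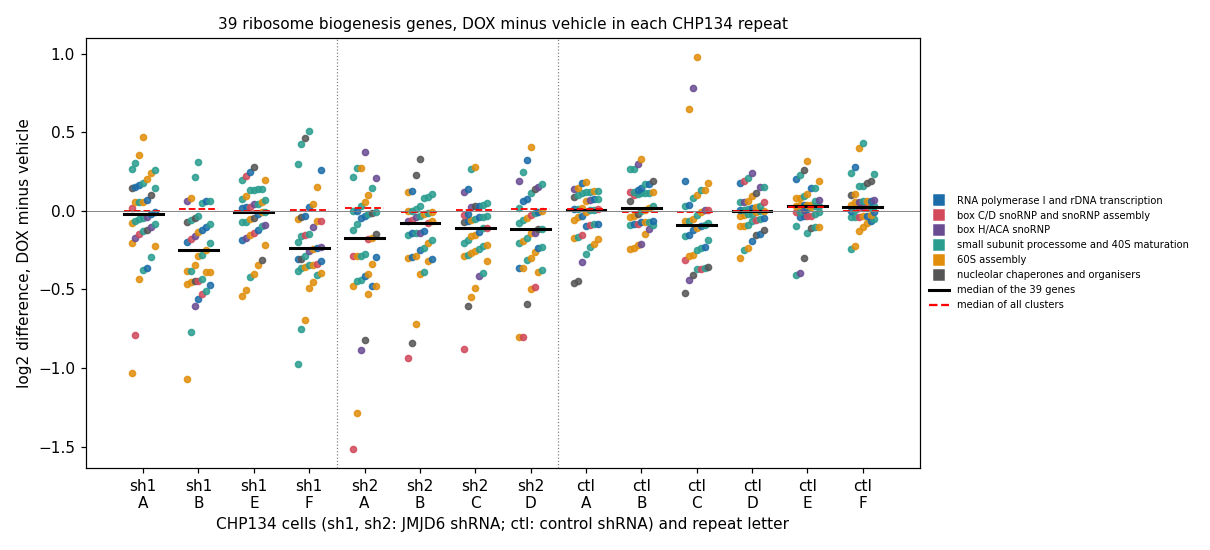
DOX minus vehicle difference (log2) of each of the 39 genes in each CHP134 repeat, coloured by role, for JMJD6 shRNA-1 (sh1), JMJD6 shRNA-2 (sh2) and control shRNA (ctl) cells. Black bars are medians of the 39 genes and red dashed bars medians of all clusters, and the black bars lie between -0.25 and -0.01 in the 8 JMJD6 shRNA repeats and between -0.09 and 0.03 in the 6 control repeats.

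Of the 11 factors of 60S assembly measured, 1 passed the test (RRP1B), 9 were below 0 in the mean response and the median was -0.22. NOP2, a ribosomal RNA methyltransferase, measured 6.05, 5.91, 5.75 and 5.47 with DOX and 6.13, 6.25, 6.15 and 6.17 with vehicle in shRNA-1 cells. It measured 5.78, 6.04, 5.99 and 5.68 with DOX and 6.26, 6.05, 6.20 and 6.48 with vehicle in shRNA-2 cells. DOX arrays lay below vehicle arrays for each hairpin, narrowly for shRNA-2. Its mean response was -0.45 (SE 0.14, adjusted p = 0.130, and 0.0511 with the block, limma), which did not pass. The RNA helicase DDX56 had -0.43 (SE 0.16, adjusted p = 0.239) and NIP7, a 60S biogenesis factor, had -0.28 (SE 0.11, adjusted p = 0.318), and FTSJ3, a methyltransferase of pre-60S particles, had -0.29 (SE 0.16, adjusted p = 0.578). Leaving out the control vehicle array of repeat C gave DDX56 a mean response of -0.34. The shRNA-2 response of GRWD1, a histone-binding nucleolar factor, was -0.35, and -0.13 without that array, where GRWD1 measured 7.99 and the other control vehicle arrays 8.78 to 8.999. PES1, which forms the PeBoW complex with BOP1 and WDR12, had 0.04, and WDR12 had -0.09. Neither passed.

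The small subunit processome and 40S maturation had 10 of 13 genes below 0, a median of -0.11 and 0 calls. NAT10, the RNA acetyltransferase that modifies 18S ribosomal RNA, measured 8.79, 8.48, 8.59 and 8.42 with DOX and 8.86, 8.92, 9.01 and 9.18 with vehicle in shRNA-1 cells. In shRNA-2 cells it measured 8.86, 8.91, 8.81 and 8.88 with DOX and 8.98, 8.83, 9.09 and 9.19 with vehicle. The shRNA-1 groups did not overlap and the shRNA-2 groups did. Its mean response was -0.33 (SE 0.12, adjusted p = 0.220, and 0.0635 with the block, limma). HEATR1, a large scaffold of the processome that also serves RNA polymerase I transcription, had -0.30 (SE 0.15, adjusted p = 0.524), and RRP12, which takes part in the export of subunits in yeast, had 0.25 (SE 0.14, adjusted p = 0.630). The other 10 genes lay between -0.20 (WDR75) and 0.11 (PNO1).

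No gene of RNA polymerase I transcription passed. The 6 genes had a median of -0.14, 4 below 0 and 0 calls. The largest subunit POLR1A had -0.21 (SE 0.18), POLR1C, which is shared with RNA polymerase III, had -0.19 (SE 0.20) and POLR1E had -0.11 (SE 0.16), with adjusted p from 0.851 to 0.943 (limma). MYBBP1A had -0.16, POLR1B was at 0.00 and the nucleolar helicase DDX21 at 0.05. Among the small nucleolar ribonucleoprotein genes other than NOLC1, the methyltransferase fibrillarin (FBL) had -0.15 and its partner NOP58 -0.06, and the H/ACA proteins GAR1, NOP10 and NHP2 had -0.28, -0.12 and 0.01. None of these passed. Without the control vehicle array of repeat C, NOP10 was at 0.00.

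The genes of 2 abundant nucleolar proteins had changes above 0 that did not pass. Nucleolin (NCL), which binds the ribosomal RNA precursor, had a mean response of 0.25 (SE 0.22, adjusted p = 0.853, limma), and nucleophosmin (NPM1), a chaperone of ribosome assembly, had 0.19 (SE 0.25, adjusted p = 0.938). Without the control vehicle array of repeat C they had 0.15 and 0.11. NCL measured 11.05, 10.86, 10.69 and 10.48 with DOX and 10.91, 10.91, 10.41 and 10.01 with vehicle in shRNA-1 cells, and the groups overlapped. NPM1 followed the repeat sets, with control arrays averaging 10.96 in repeats A and B, 11.55 in C and D and 11.47 in E and F. DOX minus vehicle for NPM1 in JMJD6 shRNA cells was negative in 5 of 8 repeats, and in control cells it was -0.16 over the group and negative in 4 of 6 repeats.

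A difference between the hairpins was not detected for any of these genes. In the test of shRNA-2 minus shRNA-1, 0 of 39 passed, with or without the block, against 0.00932% and 0.326% of all clusters (limma). At an unadjusted p of 0.05 there was 1 lower (against 2.89%) and 1 higher (against 2.29%). They were NOLC1, with a difference of -0.60 (SE 0.29, adjusted p = 0.963), and RRS1, a 60S assembly factor, with 0.42 (SE 0.20, adjusted p = 0.963). Fitted alone, shRNA-1 gave 0 calls among the 39 genes and 0 over all clusters, with 4 of 39 lower and 0 higher at an unadjusted p of 0.05 (3.02% and 2.19% of all clusters) and 0 calls with the block, against 0.0746% of all clusters. For shRNA-2 there were 0 calls among the 39, against 0.779% of all clusters, 3 with the block, against 4.47%, and 2 under the list thresholds, against 2.9%. At an unadjusted p of 0.05, 5 of 39 were lower and 0 higher with shRNA-2, against 5.52% and 4.87%. The medians over the 39 genes were -0.13 for shRNA-1 and -0.12 for shRNA-2.

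DOX itself was compared in control cells. In CHP134 control cells 0 of 39 genes passed (0% of all clusters), 0 of 39 had an unadjusted p under 0.05 (limma, against 0.504% lower and 0.476% higher of all clusters) and the median difference of DOX minus vehicle was 0.00. In SK-N-AS control cells 0 of 39 passed, 0 had an unadjusted p under 0.05 (against 1.52% lower and 1.67% higher) and the median was -0.02.

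Before induction, 4 of the genes were lower in shRNA-1 than in control arrays in repeats E and F, and did not pass in A and B. Over all 4 repeats, vehicle arrays of shRNA-1 minus control gave 0 calls of 39, 0% of all clusters and a median of -0.07. At an unadjusted p of 0.05, 3 of 39 were lower and 0 higher, against 3.05% and 2.31%. These were NCL at -0.55 (SE 0.19), NOLC1 at -0.60 (SE 0.23) and FTSJ3 at -0.42 (SE 0.17), with adjusted p from 0.861 to 0.886 (limma). Within repeats E and F alone, 4 of 39 were lower in shRNA-1 vehicle arrays, against 2.56% of all clusters. They were NOP14, a processome factor, at -1.01 (SE 0.16, adjusted p = 0.0158), NCL at -0.98 (adjusted p = 0.0338), NOLC1 at -0.91 (adjusted p = 0.0118) and POLR1A at -0.68 (adjusted p = 0.0467). Within repeats A and B alone 0% of all clusters passed, with NOP14 at -0.11, NCL at -0.13, NOLC1 at -0.28 and POLR1A at 0.07. The part of the repeat set in this was not tested. NOP14 measured 7.54 and 7.73 in repeats E and F and 8.73 and 9.004 in A and B of shRNA-1 vehicle cells, against 8.63 and 8.67 in E and F and 8.99 and 8.97 in A and B of control vehicle cells. The shRNA-2 vehicle arrays gave 0 calls against control vehicle arrays, 0 at an unadjusted p of 0.05 (against 0.9% lower and 1.5% higher of all clusters, limma) and a median of 0.01.

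In SK-N-AS no gene passed, and neither did JMJD6, the target of the hairpin. With shRNA-2, 0 of 39 genes passed, as did 0% of all clusters, and at an unadjusted p of 0.05, 1 of 39 was lower and 0 were higher (3.34% and 2.33% of all clusters, limma). The median was 0.03 with 22 of 39 above 0, against 0.02 over all clusters. Without both control arrays that stand apart, the median was 0.05 with 23 above 0, again with 0 calls. NOLC1 measured 9.42, 9.63 and 9.41 with DOX and 10.05, 9.91 and 9.88 with vehicle in shRNA-2 cells. Control cells measured 9.84, 9.88 and 9.89 with DOX and 9.92, 9.84 and 9.72 with vehicle. All 3 induced arrays lay below the other 9. This held for 1 of 39 genes, a share close to the 2.76% of all clusters, and 0 lay above, against 3.3%. The response of NOLC1 was -0.51 (SE 0.15, 1.42-fold, adjusted p = 0.525, limma), and -0.55 (SE 0.16, adjusted p = 0.380) without both arrays that stand apart, and it did not pass.

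RRP1B was -0.10 in SK-N-AS (SE 0.19, adjusted p = 0.993, limma), with 8.17, 8.25 and 8.28 with DOX and 8.44, 8.33 and 8.49 with vehicle in shRNA-2 cells. The groups did not overlap, but the control DOX and vehicle arrays spread from 8.26 to 8.81. LYAR had -0.15 (SE 0.17). Next to NOLC1 the lowest were PES1 (-0.30) and DDX56 (-0.28), and the highest were UTP20 (0.35), a processome scaffold, POLR1C (0.31) and MYBBP1A (0.22), a Myb-binding nucleolar protein, with adjusted p from 0.880 to 0.927. Whether responses differed between the lines was not tested. Uninduced shRNA-2 cells of SK-N-AS gave 0 calls of 39 against control vehicle cells (0.00466% of all clusters, limma). At an unadjusted p of 0.05, 1 was lower and 1 higher, against 3.72% and 3.9%, namely GRWD1 at -0.37 (SE 0.12) and PES1 at 0.35 (SE 0.13).

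A second list of 109 other ribosome biogenesis genes, of which 104 were measured, was described the same way. In the CHP134 mean response 2 of 104 passed, both lower, against 0.844% of all clusters lower. With the block 11 of 104 passed lower, against 3.59% of all clusters, and 2 passed higher, against 557 of all 21448 clusters. Either way, 6.18% of all clusters passed with the block. The median was -0.10 and 75 of 104 were below 0, against 49.6% of all clusters. EIF6, which keeps the 60S subunit from joining the 40S subunit, fell by 0.69 (SE 0.13, adjusted p = 0.00378, limma). GTPBP4, a GTPase of 60S assembly, fell by 0.81 (SE 0.18, adjusted p = 0.0171), with -1.28 for shRNA-2 (SE 0.27, adjusted p = 0.0342). RRN3, the factor that recruits RNA polymerase I, had 0.57 (SE 0.16, adjusted p = 0.0748) and was higher with the block (adjusted p = 0.00620). GTPBP4 differed between hairpins with the block (-1.01, adjusted p = 0.0342) and not without it (0.264). In SK-N-AS 0 of 104 passed, the median was -0.03 and GTPBP4 had -0.83 (SE 0.22, adjusted p = 0.412).

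Between the lines, 28 of the 39 genes had a higher signal in CHP134 than in SK-N-AS control cells, as did 13674 of all 21448 clusters and 9437 of the 14460 above negative controls on every control array. Array distributions differed between the lines, and whether the lines were normalised together is not given in the sources used here. The values are therefore set side by side without a test, and the median over all clusters was itself 0.17 higher in CHP134. The median difference of CHP134 minus SK-N-AS control arrays was 0.48 over the 39 genes and 0.49 over the 104 other genes, with 88 above 0. Over the 14460 clusters it was 0.22. By percentile within the line, 25 of 39 genes were higher in CHP134, as were 11646 of all clusters. All 12 CHP134 control arrays lay above all 6 SK-N-AS control arrays for 20 of 39 genes, against 22.6% of all clusters, and below them for 3 of 39, against 12.4%. Without both SK-N-AS arrays that stand apart the median over the 39 genes was 0.55.

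MRTO4, a factor of 60S assembly related to the ribosomal stalk protein, differed most, at 8.55 ± 0.19 in CHP134 (range 8.15 to 8.78, SD, n = 12) and 6.87 ± 0.15 in SK-N-AS (6.69 to 7.07, n = 6). The helicase DDX10 averaged 8.03 ± 0.23 in CHP134 and 6.55 ± 0.15 in SK-N-AS. RRP9, a protein of the U3 small nucleolar ribonucleoprotein, averaged 7.67 ± 0.18 in CHP134 and 6.45 ± 0.21 in SK-N-AS. MYBBP1A, BYSL, a 40S maturation factor, PES1 and FBL were 1.03 to 1.16 higher in CHP134, and their ranges did not overlap. The genes whose CHP134 arrays all lay lower were HEATR1 (9.67 ± 0.16 in CHP134 against 10.45 ± 0.10 in SK-N-AS), GRWD1 (8.81 ± 0.29 in CHP134 against 9.47 ± 0.17 in SK-N-AS) and NOP10 (10.87 ± 0.26 in CHP134 against 11.36 ± 0.05 in SK-N-AS), 1 of each from the processome, 60S assembly and H/ACA groups. The lines also differed in markers outside this pathway, whose part in these values was not tested, with LUM at 2.53 to 3.54 in CHP134 and 10.35 to 11.40 in SK-N-AS among the fibroblast genes. The others of that list, DCN and COL1A1, were at 4.81 to 5.61 and 5.99 to 7.26 in CHP134 and at 9.43 to 10.6 and 7.36 to 7.85 in SK-N-AS. Of the leukocyte genes, PTPRC was at 2.98 to 4.01 in CHP134 and 8.97 to 10.3 in SK-N-AS, CD3E at 4.39 to 5.44 in CHP134 and 4.85 to 5.27 in SK-N-AS, and CD79A at 6.49 to 7.27 in CHP134 and 5.80 to 6.73 in SK-N-AS.

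**Figure D5:**
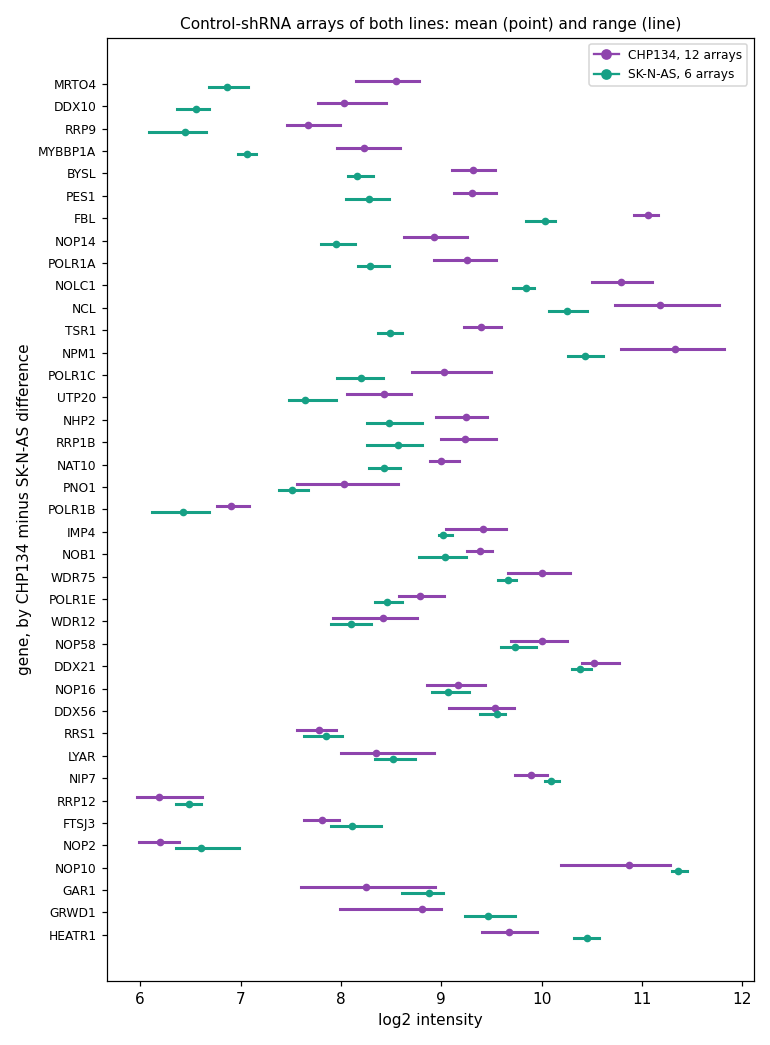
Mean (point) and range (line) of log2 intensity in control shRNA arrays, 12 of CHP134 (purple) and 6 of SK-N-AS (green), DOX and vehicle together, for each of the 39 genes ordered by the difference. No test was made between the lines. Ranges separate for 20 genes higher and 3 genes lower in CHP134.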

How the data were processed

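RNA was measured on Affymetrix Clariom S arrays. The values that the authors deposited are log2 intensities of probe sets after RMA, a method of background correction, quantile normalisation and summary named with limma in their processing notes (versions are not given in the sources used here). Quantile normalisation gives arrays of a run 1 distribution and so hides a shift common to most genes. The 99th percentile was 11.4 to 11.5 in CHP134 arrays and 11.1 to 11.2 in SK-N-AS arrays. The sources used here do not state whether the lines were normalised together, so no test was made between them.

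Of 44 columns, 4 were copies, identical to their originals and dropped, which left 40 arrays (28 and 12). Samples were grouped by title, including the repeat letters, which the series' design text gives the other way round for the hairpins. The 5741 control probe sets were left out. limma 3.58.1 in R 4.3.3 (lmFit, eBayes, two-sided, Benjamini-Hochberg over 21448 clusters, threshold 0.05) fitted group means. The CHP134 comparisons of 1 hairpin with control cells, induced or not, used control arrays of that hairpin's letters, and all other comparisons used all arrays of the line. The CHP134 letters were taken to pair arrays, since each of the 54 same-letter correlations exceeded 0.1. Of the correlations between other letters of the same set, 49 of 54 did so too. The letter block therefore also takes up differences between sets, and this measure does not separate letter from set. In SK-N-AS 4 of 18 same-letter correlations exceeded 0.1, so its letters were not taken to pair arrays. Gene names came from the platform annotation (17709 clusters with 1 symbol, 0 with several, 3739 with none).

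The genes, lists and tests were chosen with earlier results of these data known. Genes were named if called in any comparison, if among the 3 smallest p per role in the CHP134 mean response or the 3 largest changes each way in SK-N-AS. The rule also took the highest and lowest mean levels in each line, which was not followed because levels of different probes are not comparable. Other genes are named as members of a count or group, or to show a role, with values seen. The study's list thresholds were a fold of 1.5, p of 0.05 and adjusted p of 0.20. Alternatives were the repeat letter or set as a block, values within sets, all CHP134 arrays in one fit, moderation with trend, median centring, a filter at the 95th percentile of 612 negative controls and leaving out each array. The study states that the microarray experiments were repeated, without saying whether each repeat was a culture of its own. The p-values therefore measure how far these samples spread, possibly for technical reasons, and the number of arrays limits precision. The fit was tested on simulated data in which arrays were independent, so that test does not cover the correlation within repeat letters and sets.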

Additional observations from a re-analysis of the deposited data

Results flagged for a closer look

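In groups of 4 to 6 CHP134 arrays, 240 sets of values (the 39 genes and their mean) were searched for a single array far from the others. Chance alone flags about 1 in 20 of them, and 6 were found, fewer than that share. The control vehicle array of repeat C was the lowest of its group for NOP10 at 10.2 (the next was 10.9), for DDX56 at 9.08 (next 9.53) and for GRWD1 at 7.99 (next 8.78). The control DOX array of repeat D was lowest for GRWD1 at 8.54 (next 8.86). NHP2 was highest in the shRNA-2 DOX array of repeat A at 9.67 (next 9.33), and BYSL was lowest in the shRNA-1 vehicle array of repeat E at 9.05 (next 9.35).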

How the results depend on the processing

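In CHP134, the count of genes called in the mean response, 1 of 39, became 3 with the replicate block (the letter pairing), 4 with the repeat set as a block, 2 under the study's list thresholds and 0 within repeats A and B. For shRNA-2 the 0 calls became 3 with the replicate block, 3 with the set block, 1 with trend and robust moderation and 2 under the list thresholds. The replicate block also raised the share of all clusters called in the mean response, from 1.25% to 6.18%. Shares of all clusters under the set block and under trend and robust moderation are not given here. Those counts therefore cannot be read as results about these genes. For uninduced shRNA-1 minus control cells, 0 became 4 within repeats E and F. The block changed no other call among the 39 genes, and in SK-N-AS, where letters do not pair arrays, the replicate block left 0 calls. Medians moved by less than the spread between arrays under every alternative run, among them median centring, and leaving out single arrays gave -0.15 to -0.07 for the mean response, -0.17 to -0.09 for shRNA-1, -0.19 to -0.05 for shRNA-2, -0.10 to -0.01 for shRNA-2 minus shRNA-1 and 0.00 to 0.05 in SK-N-AS. RRP1B stayed called without any 1 of the 28 arrays (-0.85 to -0.72, adjusted p 0.0108 to 0.0462, limma). Among the genes followed through every alternative, signs turned for NOP10 within repeats A and B (0.17) and, on leaving out single arrays, for NOP58 (-0.12 to 0.0282), NHP2 (-0.0528 to 0.0734) and, in SK-N-AS, RRP1B (-0.23 to 0.0053), none of them called, and the cause was not tested. Of all 39 genes, 9 turned sign in the mean response within repeats A and B, NOP10 among them, and 3 without the control vehicle array of repeat C. Leaving out both SK-N-AS control arrays was chosen after seeing the data. Every gene had 1 cluster, so a choice between clusters was not run.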
